A study of Mus musculus with 6 samples.

Results

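The clustered histone genes are the genes of the mouse whose symbols begin with Hist1h, Hist2h, Hist3h or Hist4h, which code for the linker histone H1 and the core histones H2A, H2B, H3 and H4. Members were chosen by symbol from a gene table of 33924 rows, and 70 symbols matched. A mean normalized count of at least 10 was met by 55 of the 70 (78.6%), against 18479 of all 33924 genes (54.5%), and these 55 genes are described below by locus and by class. RNA was measured by sequencing of paired reads. The mean normalized count is the average of a gene's scaled count over all 6 libraries. The samples were the retinal pigment epithelium (RPE), the pigmented layer behind the photoreceptors, collected with the underlying choroid from wild-type C57BL/6J mice. The labels give the 3 young mice an age of 1 to 2 months and the 3 aged mice an age of 22 to 24 months in their age field and 20 to 24 months in their titles. The study's text gives another young age and both sexes, where the labels give 1 sex. The RNA is labelled polyA, while the library kit in the labels was one for total RNA after removal of ribosomal RNA. The study's text describes both depletion of ribosomal RNA and selection of poly(A) RNA. Both eyes of 1 mouse made 1 sample, and no mouse carried an engineered allele or received a treatment.

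The values used were 1 mean per gene over both age groups. With no value per mouse analysed here, the spread between mice cannot be given, no test was run, and the young and aged mice were not compared here. Close neighbors in an order of levels should therefore not be read as different.

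During S phase of the cell cycle, new DNA is wrapped around nucleosomes that are built from the core histones, while H1 binds the linker DNA between them. Most clustered histone genes have no intron and give mRNAs that end in a short conserved stem-loop in place of a poly(A) tail. The stem-loop is bound by SLBP, and the U7 particle, with its proteins LSM10 and LSM11, directs the cut that forms the end. Some of these genes can also yield polyadenylated transcripts, among them in cells that have stopped dividing. The adult RPE is made of such cells.

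The stem-loops below are shown because they are the feature that separates these mRNAs from other mRNAs, and because the members are grouped by it further on. They were read from GENCODE M21 transcripts of GRCm38, each as the RNA strand written in DNA letters, with the 2 arms of the stem in capitals.

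Hist1h1c, chr13:23739507-23739532, plus strand: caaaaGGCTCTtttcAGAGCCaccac

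Hist2h2aa2, chr3:96239779-96239804, minus strand: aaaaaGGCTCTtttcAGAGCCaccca

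Hist1h2bg, chr13:23571838-23571863, plus strand: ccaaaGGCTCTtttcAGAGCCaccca

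Hist2h3c1, chr3:96247322-96247347, plus strand: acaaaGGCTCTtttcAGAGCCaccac

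Hist1h4i, chr13:22040961-22040986, minus strand: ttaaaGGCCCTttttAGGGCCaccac

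Hist1h4j, chr13:21735432-21735457, plus strand: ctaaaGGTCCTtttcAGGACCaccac

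A stem of this form (GGNNNT, a loop of 4 bases, ANNNCC, with arms that pair base by base) was found after the stop codon in the longest annotated transcript of 45 of the 70 genes, 36 of them members. It began 21 to 58 bases after the stop codon, with a median of 31. The left arm was GGCTCT in each H1, H2A, H2B and H3 gene that had a stem. H4 genes had GGCCCT in 10 cases and GGTCCT in 2, Hist1h4b and Hist1h4j. The 4 loop letters were tttc in 34 of the 45 stems, ttta in 6 and tttt in 3. For comparison, the same pattern occurred anywhere in a transcript of 404 of 21810 other coding genes (1.85%).

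In these libraries the clustered histone genes together had a small part of the signal, and a few genes held most of that part. The 55 members summed to a mean normalized count of 28761, which was 0.0705% of the total over all genes. The median member stood at 76.0, while the median of all genes at or above the minimum of 10 was 668, and only 7 members were above that value. Selection of poly(A) RNA is meant to leave out mRNAs without a tail. These levels therefore do not give the abundance of all histone mRNA in the tissue, and how much was left out was not tested. Hist1h2bc, Hist1h1c and Hist2h2aa2 together held 59.3% of the members' sum. The means of 6 members were 1299 or more and those of 34 were below 150. Because the tissue holds several cell types, fewer cells of a type and less RNA per cell cannot be told apart in any of these levels.

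**Figure D1:**
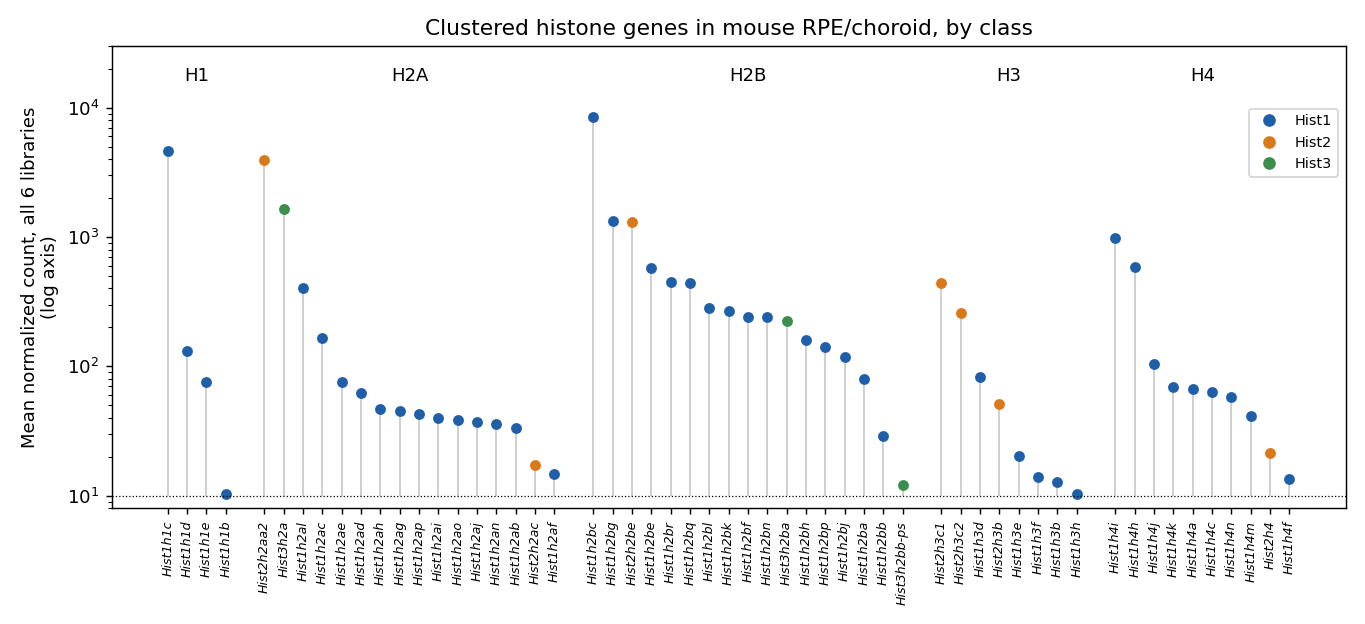
Mean normalized count over all 6 libraries (log axis) of each of the 55 members, ordered from high to low within its class and colored by locus; the dotted line is the minimum of 10. Each class has 1 to 3 genes far above the rest, from Hist1h2bc at 8484 down to Hist1h1b at 10.3.

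By class, H2B held the largest share of the members' signal, 50.0% from 17 of 19 genes. H2A followed with 23.2% from 16 of 20 genes, H1 with 16.8% from 4 of 6, H4 with 6.99% from 10 of 13 and H3 with 3.08% from 8 of 12. A longer transcript yields more fragments, so levels of genes were compared per kilobase of the longest annotated transcript. The study's text, however, says that the authors quantified TPM, a unit already corrected for transcript length, and turned it into normalized counts. If that correction remains in the deposited values, division by length corrects them again. Whether it remains was not tested. Every level, ratio and order per kilobase given here therefore holds only if it does not remain. Per kilobase the median member stood at 255 in H2B, 129 in H4, 97.6 in H2A, 45.5 in H3 and 28.5 in H1. As mean normalized counts the order was another, with medians of 242 in H2B, 104 in H1, 64.9 in H4, 44.3 in H2A and 35.7 in H3. The place of H1 thus depends on the annotated length. Per kilobase, the classes differed less in their medians than single genes differed within each class, where the highest gene was at least 23.0-fold above the lowest. Without Hist1h2bc, H2A held 32.9% of the remaining signal and H2B 29.0%.

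By locus, the Hist1 genes of chromosome 13 held 72.5% of the signal with 45 of 56 genes at or above the minimum. The Hist2 genes of chromosome 3 held 20.98% with 7 of 10 genes, and the Hist3 genes of chromosome 11 held 6.57% with all 3. The single Hist4 gene, Hist4h4 on chromosome 6, had a mean of 1.36 and is no member. Excluding Hist1h2al, which lies apart from the cluster, the Hist1 genes covered chr13:21715763-23934851, the Hist2 genes chr3:96219865-96270132 and the Hist3 genes chr11:58948920-58956830, all in GRCm38.

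The loci contributed to the classes very unequally. Hist1 supplied all of the H1 signal, 98.9% of H4 and 89.3% of H2B, but 15.6% of H2A and 15.7% of H3. Hist2 supplied 59.5% of H2A and 84.3% of H3 with 2 and 3 members. Hist3 supplied 24.8% of H2A from 1 gene, Hist3h2a, and 1.64% of H2B.

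**Figure D2:**
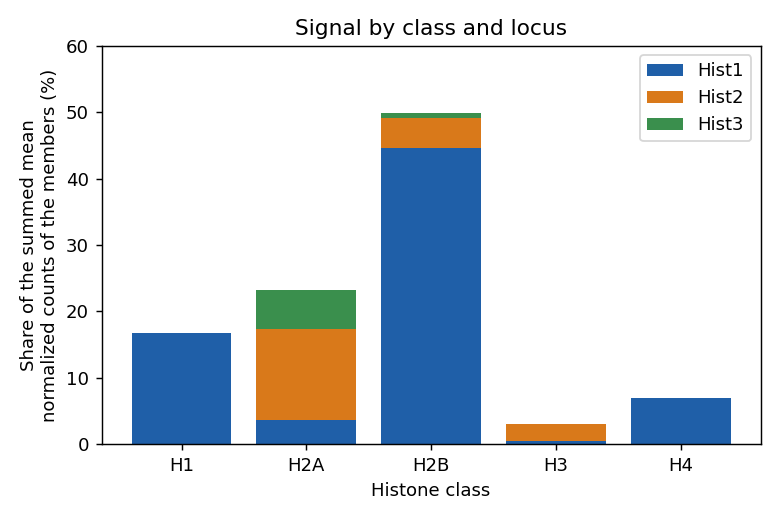
Share (%) of the summed mean normalized counts of the 55 members by histone class, with each bar divided by locus. H2B reaches 50.0%, nearly all of it Hist1, while most of the H2A and H3 bars is Hist2 (59.5% and 84.3% of those classes).

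The linker histone genes were dominated by Hist1h1c, which codes for the somatic linker histone H1.2. Its mean normalized count was 4615, or 95.5% of the H1 signal, and its level per kilobase was 2958. Hist1h1d had 131, Hist1h1e 76.0 and Hist1h1b 10.3, all 3 being somatic H1 genes as well. The other 2 H1 genes were below the minimum. Hist1h1a had a mean of 3.09, and Hist1h1t, the testis-specific linker histone, had 1.66. To see how far reads could be told apart, each gene's transcripts were divided into all their overlapping words of 50 bases, and a word counted as the gene's own where no other gene's annotated transcript holds it. Each H1 member had at least 68.0% of its words to itself, so its reads could be told from those of other genes over most of the transcript.

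Among H2A genes the order of levels was led by a Hist2 and a Hist3 gene. Hist2h2aa2 had a mean of 3949 and Hist3h2a 1652. Hist1h2al followed with 404, although it is annotated as a processed pseudogene. Hist1h2ac had 165, and the other 12 H2A members lay between 14.8 (Hist1h2af) and 75.8 (Hist1h2ae), the lowest 3 being Hist1h2af, Hist2h2ac at 17.2 and Hist1h2ab at 33.3.

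Sequence shared between copies limited what could be said of H2A. None of the 50-base words of Hist2h2aa2 were its own, since all of them also occur in Hist2h2aa1, a copy in the opposite orientation on chr3:96245497-96246082, while Hist2h2aa2 is at chr3:96239749-96240276. Hist2h2aa1 was listed at 0.169, against 3949 for Hist2h2aa2. Over its whole length a read of Hist2h2aa2 also matches Hist2h2aa1, while 10.6% of the words of Hist2h2aa1 were its own. The table gives nearly the whole of the value to 1 of the 2 copies, and reads within their common words cannot be assigned by sequence. Hist1h2al shared 65.5% of its words with Hist2h2aa1, and so its 404 is also uncertain. With words of 100 bases, the read length in the study's text, 80.8% of the words of Hist1h2al were its own. Hist3h2a shared 31.5% of its words with Trim17, an overlapping gene. In all, 12 of the 16 H2A members had fewer than 50% of their words to themselves.

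The 9 H2A genes of Hist1 that code for 1 identical protein stood close to each other per kilobase, but less so as counts. They were Hist1h2ab, Hist1h2ac, Hist1h2ad, Hist1h2ae, Hist1h2ag, Hist1h2ai, Hist1h2an, Hist1h2ao and Hist1h2ap. Together they had a mean of 540, and per kilobase they ranged from 66.6 for Hist1h2ac to 110 for Hist1h2ad, a ratio of 1.64. As mean normalized counts they ran from 33.3 for Hist1h2ab to 165 for Hist1h2ac. The longest transcripts of those genes have 473 and 2482 bases, so the closeness depends on the annotated length. Of the 9, 7 had fewer than 50% of their words to themselves, so for these the closeness was measured largely on reads that the copies share. Hist1h2ac had 85.9% of its words to itself.

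The H2B class was the highest and had the highest member. Hist1h2bc had a mean of 8484, 59.0% of the class, followed by Hist1h2bg with 1332 and Hist2h2be with 1299. These 3 genes had 69.9%, 50.3% and 100% of their words to themselves. Hist1h2be had 572, Hist1h2br 446 and Hist1h2bq 443. Another 8 genes lay between 118 (Hist1h2bj) and 280 (Hist1h2bl). The lowest were Hist1h2ba at 80.3, which codes for the testis-specific H2B, Hist1h2bb at 29.1 and the pseudogene Hist3h2bb-ps at 12.2.

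Genes that code for an identical H2B could differ widely. Hist1h2bc, Hist1h2be and Hist1h2bg share 1 protein sequence and summed to 10388, and per kilobase they spanned 32.1-fold, from 228 for Hist1h2be to 7339 for Hist1h2bc. As mean normalized counts they ran from 572 for Hist1h2be to 8484 for Hist1h2bc. The longest transcripts of those genes have 2506 and 1156 bases, so the width depends on the annotated length. Hist1h2bf, Hist1h2bj, Hist1h2bl and Hist1h2bn share another protein and spanned 2.89-fold per kilobase. Hist1h2bq and Hist1h2br, which also share 1 protein, differed 1.08-fold per kilobase, but 97.3% of the words of Hist1h2bq also occur in Hist1h2br.

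H3 was the lowest class by summed level. Hist2h3c1 had a mean of 438 and Hist2h3c2 258, followed by Hist1h3d with 82.01 and Hist2h3b with 51.0. The other 4 members were Hist1h3e at 20.4, Hist1h3f at 13.9, Hist1h3b at 12.7 and Hist1h3h at 10.4. The annotated coding sequences of the 12 H3 genes gave only 3 distinct proteins. That of Hist2h3c1 was annotated at 181 residues, against 136 for its copy Hist2h3c2, and was shared with no other gene. The 6 members with 1 identical protein ran from 10.998 per kilobase for Hist1h3f to 253 for Hist2h3c2, a ratio of 23.0. The 2 leading genes are inverted copies on either side of the Hist2h2aa copies, at chr3:96238108-96239127 and chr3:96246685-96248509, and 63.5% of the words of Hist2h3c2 also occur in Hist2h3c1.

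All 13 H4 genes code for 1 and the same protein, yet their levels were far apart. Hist1h4i had a mean of 986, or 49.1% of the class, and Hist1h4h had 587. Hist1h4j had 104, Hist1h4k 69.0, Hist1h4a 67.0, Hist1h4c 62.8, Hist1h4n 57.5 and Hist1h4m 41.2, and the lowest were Hist2h4 at 21.2 and Hist1h4f at 13.5. Per kilobase the members ran from 13.03 for Hist2h4 to 1356 for Hist1h4i, a ratio of 104. Only 3 of the 10 had fewer than 50% of their words to themselves, which were Hist1h4k, Hist1h4m and Hist1h4n.

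The values on either side of the minimum of 10 were close. Inside were Hist1h1b at 10.3, Hist1h3h at 10.4 and Hist3h2bb-ps at 12.2. Outside were Hist1h3i at 9.89, Hist1h4d at 9.79 and Hist1h2ak at 5.03. For such low genes the mean can be split into whole counts per library, because every mean is a sum of whole counts weighted by 6 size factors, which ran from 0.959 to 1.06. This gave 1 solution for each of the 3039 genes in the table with a mean above 0 and under 1, to within 8e-10, and 1 for each of the 15 genes below the minimum. Which library belongs to which mouse is not known, and these counts had been scaled before, so they are not read numbers. With each library left out in turn, the mean of Hist1h3i ran from 8.12 to 11.5 and that of Hist1h4d from 7.11 to 11.2, so their place below the minimum depended on single libraries.

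The 15 genes below the minimum ranged from a gene listed at 0 to genes counted in all 6 libraries. Hist1h3i had 60 counts in all, 2 to 18 in each library, and Hist1h4d had 59, 3 to 23 in each. Hist1h2ak had 30, 2 to 9 in each library. Hist1h3c (27 counts), Hist1h3g (24), Hist1h3a (23) and Hist1h2bm (21) were found in 5 or 6 libraries. Hist1h1a had 19 counts in 4 libraries and Hist1h1t 10 counts in 4. Hist2h2bb and Hist1h4b had 9 counts each, in 3 and 5 libraries, and Hist4h4 had 8 in 3. Hist1h2aa, a testis H2A gene, had 2 counts in 2 libraries, Hist2h2aa1 had 1 count in 1, and Hist2h2ab was listed at 0. In the 2 genes just outside the minimum the highest library was thus several times the lowest.

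Sequence shared with other genes limited the value of many single members. Of the 55 members, 27 had at least 50% of their 50-base words to themselves and held 73.1% of the signal, with a median of 104. The other 28 held 26.9%, with a median of 54.2. Per kilobase the medians were 108 and 112. Under 10% was seen in 9 members, and 2, Hist2h2aa2 and Hist2h3c1, had none. With words of 100 bases, the read length in the study's text, many own shares were higher. That of Hist1h2al rose from 32.4% to 80.8% and that of Hist1h3e from 26.6% to 57.1%, while Hist2h2aa2 and Hist2h3c1 still had none. For Hist2h3c1 the partner was a readthrough gene that is absent from the table, and when the words were compared with listed genes alone, 65.3% were its own. H2A had the lowest median own share, 20.7%, and H1 the highest, 94.6%.

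**Figure D3:**
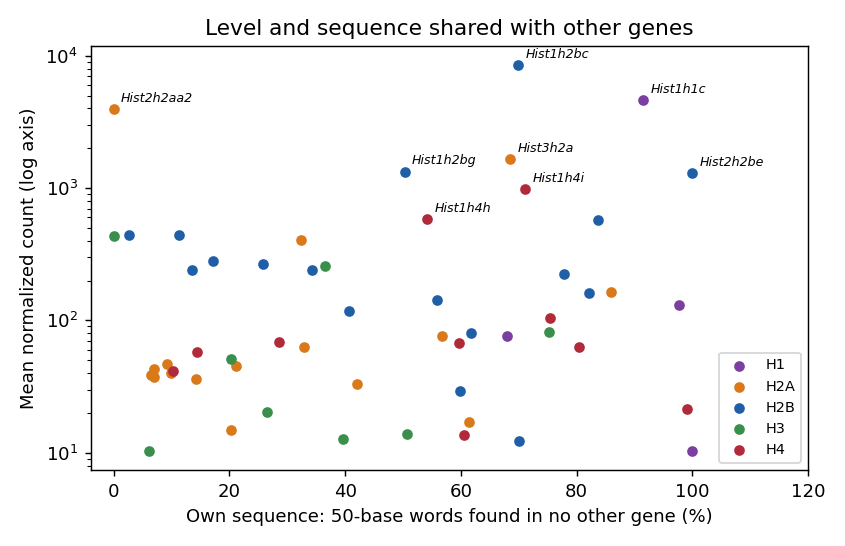
Mean normalized count (log axis) of the 55 members against the share (%) of their 50-base words found in no other gene, colored by class; the 8 highest genes are named. Hist2h2aa2 stands at 3949 with 0% own sequence, while the other 7 named genes have at least 50.3%.

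The Hist1 cluster lies in 2 blocks with 1487 kb between them, and the blocks differed in make-up. The block at chr13:21715763-22043676 held 21 members with a summed level of 3503, of which Hist1h4i made 986. The block at chr13:23531050-23934851 held 23 members with 16933, of which Hist1h2bc made 8484. Without the top gene of each, the sums were 2517 and 8449, and Hist1h1c made 4615 of the second. The H2B medians were alike in both, 255 and 228 per kilobase over 7 genes each, but the H2B sums were 1937 and 10900. Without the top H2B gene of each block, the H2B sums were 1491 and 2416. H2A medians were 93.8 over 7 genes and 70.4 over 5, and H4 medians 135 over 5 genes and 100 over 4. In the first block 17 of 21 members had under 50% own sequence, and in the second 6 of 23.

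Many H2A and H2B genes lie head to head, with 1 short stretch of DNA between their starts. There were 14 such neighbors within 500 bases, 173 to 306 bases apart, and in 11 of them both genes were members. The H2B gene was the higher per kilobase in 12 of the 14, and in 10 of the 11. In these 10 the ratio ran from 2.27 to 110, with a median of 4.84. Hist1h2bc at 7339 per kilobase faced Hist1h2ac at 66.6, Hist1h2bg at 2155 faced Hist1h2ae at 108, and Hist2h2be at 496 faced Hist2h2ac at 33.1. The exception among the 11 was Hist3h2a, at 770 per kilobase, which faced the pseudogene Hist3h2bb-ps at 26.2. Of the 3 pairs with 1 gene below the minimum, Hist1h2ba at 209 per kilobase faced Hist1h2aa at 0.816, which rests on 2 counts. Hist1h2bn at 632 faced Hist1h2ak at 12.8. The pseudogene Hist1h2aj at 106 was above its H2B neighbor Hist1h2bm at 6.59. The H2A genes of the 10 pairs lay between 33.1 and 115 per kilobase, while their H2B neighbors lay between 203 and 7339.

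**Figure D4:**
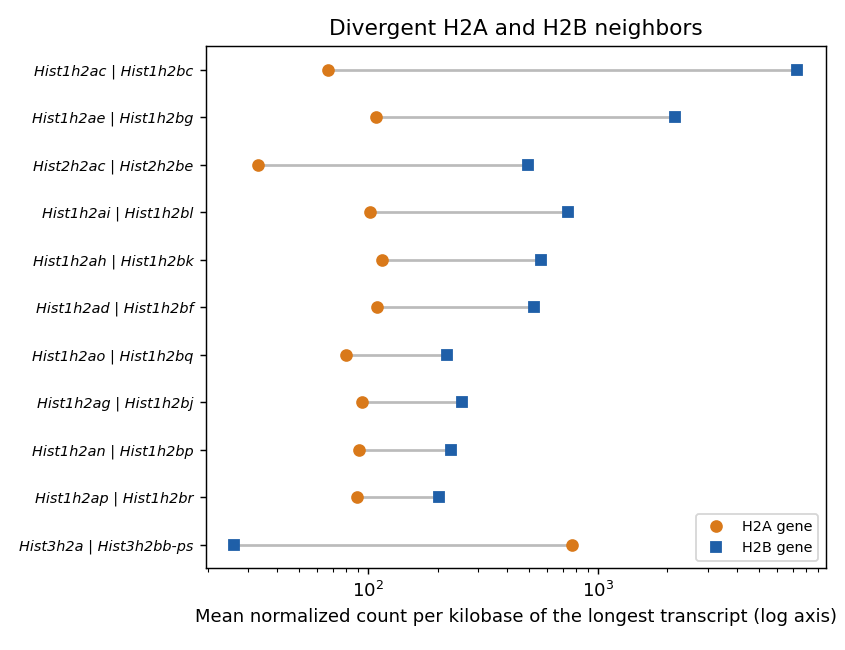
Mean normalized count per kilobase of the longest transcript (log axis) of the H2A gene (circle) and the H2B gene (square) in the 11 head-to-head pairs with both genes at or above the minimum; the line joins the pair. The square is to the right in 10 pairs, farthest for Hist1h2ac and Hist1h2bc, 66.6 and 7339. Distances depend on the annotated length, on whether the values were already corrected for length and, for many genes, on reads that copies share.

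The promoter window of Hist1h2ac is printed because the DNA between it and Hist1h2bc separates the 2 genes with the widest ratio per kilobase among pairs of members. It is from RefSeq, GRCm38.p6, chr13:23683910-23684209, minus strand and spans 300 bases around the start of Hist1h2ac; capitals mark an octamer match, here on the other strand.

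Hist1h2ac: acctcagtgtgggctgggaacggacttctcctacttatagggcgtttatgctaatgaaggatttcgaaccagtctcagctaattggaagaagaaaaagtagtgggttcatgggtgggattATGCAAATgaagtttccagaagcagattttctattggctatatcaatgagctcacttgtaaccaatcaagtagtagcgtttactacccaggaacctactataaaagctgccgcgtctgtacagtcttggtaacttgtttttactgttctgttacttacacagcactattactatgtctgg

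The next windows show the letters that marked H4 and H1. In Hist1h4i, the highest H4 gene (chr13:22041313-22041612, minus strand), capitals mark GGTCCG, part of the site by which the factor HINFP is known to bind H4 promoters.

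Hist1h4i: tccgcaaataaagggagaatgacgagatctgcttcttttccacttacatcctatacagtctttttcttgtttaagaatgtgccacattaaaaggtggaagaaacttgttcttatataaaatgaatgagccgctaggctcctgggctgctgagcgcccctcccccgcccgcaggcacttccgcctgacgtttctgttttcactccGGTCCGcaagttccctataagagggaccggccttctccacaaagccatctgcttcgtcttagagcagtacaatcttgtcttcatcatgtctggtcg

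In Hist1h1c (chr13:23738557-23738856, plus strand), capitals mark AAACACA, the H1 box.

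Hist1h1c: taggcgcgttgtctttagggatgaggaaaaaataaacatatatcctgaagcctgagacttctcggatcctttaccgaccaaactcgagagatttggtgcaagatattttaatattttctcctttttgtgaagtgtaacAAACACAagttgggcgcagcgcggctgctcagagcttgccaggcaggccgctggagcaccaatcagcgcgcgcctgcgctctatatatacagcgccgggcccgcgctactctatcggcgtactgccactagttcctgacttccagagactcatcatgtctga

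RefSeq windows were found for 48 of the 55 members, 49 windows in all, and each motif was searched on both strands. The windows of head-to-head neighbors overlap, so they are not independent. The octamer ATTTGCAT, known from H2B promoters, was in 6 of 14 H2A and 5 of 15 H2B windows, in no H1, H3 or H4 window, and in 1.74% of all 32851 windows. CCAAT was in each H1, H2A, H2B and H3 window and in 2 of 9 H4 windows, against 37.4% of all windows. GGTCCG was in 8 of 9 H4 windows and 1 other, that of Hist1h2bh, against 8.25% of all. AAACACA was in all 4 H1 windows, 1 H2A and 1 H2B window, against 7.18%. TATAAA was in 28 of the 49, against 13.6%. No window was given for Hist1h2bc or Hist2h2be, so these are not in the H2B count, while the windows of their head-to-head neighbors Hist1h2ac and Hist2h2ac hold the octamer. Hist1h2be has 2 windows, 1 with and 1 without it. The H1 box was in the window of Hist1h1c at 2958 per kilobase and in that of Hist1h1b at 13.9.

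The members were also grouped by where the longest annotated transcript ends. In 16 members the transcript ended within 100 bases after the stem-loop, 3 to 57 bases on, and their median level was 98.1 per kilobase. In 20 members it ran on for 108 to 4884 bases, and the median was 116. In 19 members no stem-loop was found in the longest transcript, and the median was 203. The length of the longest transcript both bears on the grouping and divides the levels, so these medians depend on it. Without that division the median counts were 44.3, 146 and 69.0, in another order. The groups overlapped over nearly their whole range, from 20.4 to 7480, from 10.998 to 2958 and from 13.9 to 7339. They held 19.3%, 38.4% and 42.2% of the signal, and Hist2h2aa2 alone made most of the first share.

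The 19 members without a stem-loop in the longest transcript were of several kinds. In 10 the annotation stopped within 5 bases of the coding sequence, so that it could not hold one; these held 2.88% of the signal. Another 4 were spliced, Hist1h2bc, Hist1h2bp, Hist1h2bq and Hist1h2br, and held 33.1%. Of these, Hist1h2bp has a shorter annotated transcript that does hold a stem-loop. A further 3 were pseudogenes, and the remaining 2 were Hist2h2be and Hist2h3b. Hist1h2bc has 1 annotated transcript, spliced, of 1156 bases, within chr13:23684199-23692908.

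A poly(A) signal, AATAAA or ATTAAA in the last 40 bases of the longest transcript, was present in 14 members, whose median was 234 per kilobase. The 41 members without one had a median of 95.5. Among the 41 were the 10 members whose annotation stops within 5 bases of the coding sequence, and the 3 pseudogenes. The groups thus also differ in how much of the 3′ end is annotated. Of the 14, Hist1h1c, Hist3h2a, Hist2h2be and Hist1h4i had means of 4615, 1652, 1299 and 986, and Hist2h4 had 21.2. The 3 highest genes per kilobase were split, Hist1h1c with a signal and Hist2h2aa2 and Hist1h2bc without one in that stretch. Reads cannot be placed along a transcript in these data, so which end the RNAs had was not tested.

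**Figure D5:**
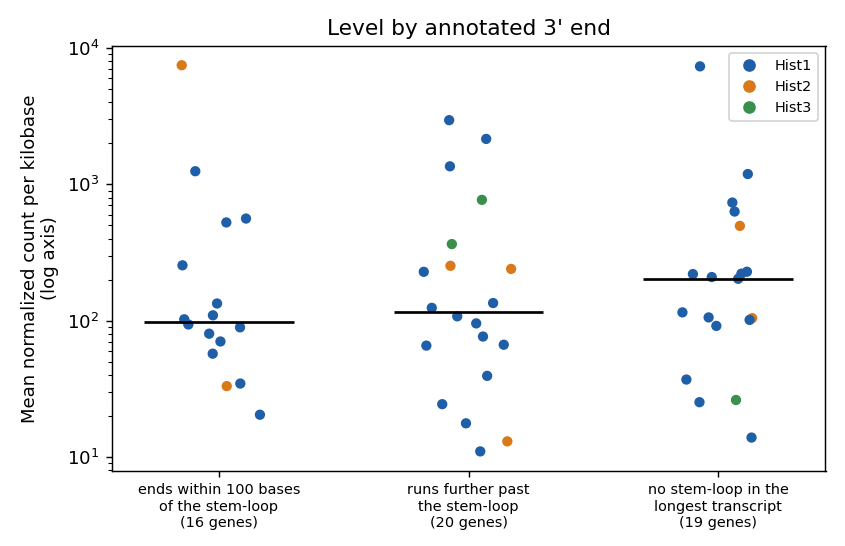
Mean normalized count per kilobase (log axis) of the members by annotated 3′ end: within 100 bases of the stem-loop (16 genes), further past it (20) and no stem-loop in the longest transcript (19). Points are genes, colored by locus, spread sideways only for sight, and black lines are medians, 98.1, 116 and 203. Without division by length the median counts were 44.3, 146 and 69.0.

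The genes listed as replication-independent histones, which lie outside the clusters and mostly give polyadenylated mRNAs, gave a larger signal in these libraries. They summed to 50912 over 16 genes, 12 of them at or above 10, while the 55 clustered genes summed to 28761. Selection of poly(A) RNA favors mRNAs with a tail, so these sums do not compare the amounts in the tissue. How far the selection shaped them was not tested. H3f3b, which codes for H3.3, had 24092, and H1fnt, a testis gene, was listed at 0. Per kilobase, H3f3c stood at 12387 and H3f3b at 9583, both above Hist2h2aa2 at 7480 and Hist1h2bc at 7339. How much sequence these genes share with others was not computed. Within H3, the highest clustered gene was Hist2h3c2 at 253 per kilobase.

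The genes whose products process histone mRNA or switch on its genes were all above the minimum. All 23 of those in the table reached 10, against 54.5% of all genes, and their median was 1820. Slbp, which binds the stem-loop, had 2174, Npat, which activates histone transcription in S phase, 714, Casp8ap2 951, Hinfp 309, Lsm10 519 and Lsm11 399. The highest was the cap-binding Ncbp2 at 5005 and the lowest Zfp473, a U7 partner, at 24.0. Among 20 genes of replicating cells all reached 10, with a median of 295, from Ccnb1 at 46.9 to Pcna, the sliding clamp of DNA polymerase, at 4799. Mki67, a marker of cycling cells, had 160 and Rrm2, which supplies deoxynucleotides, 98.6.

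Marker genes of the labelled tissue were present, and so were those of other tissues. The minimum of 10 was met by 54.5% of all genes, so reaching it does not by itself tell tissues apart. All 10 RPE genes exceeded the minimum, from Best1 at 81.8 to Ttr at 397586, as did all 6 pigment genes, from Slc45a2 at 7728 to Dct at 256984, and all 8 of the choroidal endothelium, from Cdh5 at 717 to Emcn at 7926. All 6 skeletal muscle genes, from Myh2 at 5603 to Myh4 at 48944, all 5 red cell genes in the table, from Alas2 at 1591 to Hbb-b1 at 90982, and all 6 macrophage genes in the table, from Cd163 at 208 to C1qa at 13165, were present as well. How much of the histone signal came from each of these cell types was not tested.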

How the data were processed

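RNA of RPE/choroid was taken from 3 mice of each age, and the authors' read pairs were trimmed with BBDuk, mapped with STAR to Ensembl GRCm38 transcripts, quantified with Sailfish, scaled by total count and compared with DESeq2. The deposited signal used here is the mean normalized count of each gene, averaged by the authors over all libraries. The table's 5 further columns hold the authors' own comparison of the age groups (a fold change, its standard error, a statistic and 2 kinds of p-value) and were not used. Counts per library were recovered only for genes of low mean, with no link to a mouse or age, so the planned count test was not run, the sequencing depth is unknown, and no counting interval is given. Among the symbols, 25 had become dates and were left unnamed.

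All 70 genes matched GENCODE M21 (GRCm38) and RefSeq by symbol or synonym. Levels per kilobase were divided by the length of the longest transcript. Whether the deposited values already held a correction for length, as TPM does, was not tested. Own sequence is the share of a gene's 50-base words found in no other gene's transcripts. Every member could be named, the 3 highest and lowest of each class in full, and for other lists the highest and lowest; further genes of those lists were chosen after their values were seen. The splitting of low means into whole counts was tested on simulated data. Python 3.11.15, numpy 2.4.6, pandas 2.3.3, scipy 1.17.1 and matplotlib 3.10.9 were used. Members and lists were chosen with earlier results of these data known. A further list of marker genes is not reported here.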

Additional observations from a re-analysis of the deposited data

How the results depend on the processing

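No paired analysis was possible because each gene has 1 mean over all libraries; for the same reason no library was left out of the shares and medians below, and neither a second count tool nor a filter on counts per library was run. With a minimum of 1 in place of 10, 67 genes would be members, and with a minimum of 50, 35. With no minimum the shares by class and locus moved little, as the 15 added genes have small means. Per kilobase of the longest transcript, the shares of H1, H2A, H2B, H3 and H4 were 9.44%, 32.8%, 44.7%, 2.32% and 10.7%, and those of Hist1, Hist2 and Hist3 69.5%, 26.9% and 3.62%. Per kilobase of the shortest transcript they were 8.88%, 30.9%, 47.9%, 2.18% and 10.1%, and 71.3%, 25.3% and 3.40%. From the 27 genes with at least 50% own sequence they were 23.0%, 9.09%, 58.7%, 0.456% and 8.76%, and 84.6%, 6.36% and 8.99%, where Hist2h2aa2 and Hist2h3c1 are left out. With words compared only among genes listed in the table, a choice made after seeing the data that keeps Hist2h3c1 and gives 28 genes, they were 22.5%, 8.91%, 57.5%, 2.49% and 8.59%, and 82.9%, 8.28% and 8.80%. Without Hist1h2bc they were 23.8%, 32.9%, 29.0%, 4.37% and 9.91%, and 60.9%, 29.8% and 9.31%, so that H2A and not H2B was then the largest class. The median level of genes that end near the stem-loop, run past it or lack it was 44.3, 146 and 69.0 as mean normalized counts, where the order differs from that per kilobase, 45.9, 108 and 219 per kilobase with at least 50% own sequence (45.9, 116 and 219 among listed genes), and 75.3, 95.5 and 104 with no minimum.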
